A study of Mus musculus with 8 samples.

Results

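The LIN28 and let-7 axis was taken as 9 genes, chosen by name: Lin28a, Lin28b, Tut4, Dis3l2, Hmga2, Igf2bp1, Igf2bp2, Igf2bp3 and Arid3a. On these arrays 8 of the 9 had a probe set whose platform annotation names that gene alone, out of 19938 genes in all, and Igf2bp2 was not analysed here. Igf2bp1 had more than 1 such probe set, and the brightest was used. The genes were chosen with the levels in each clone already known, so the clone levels below are a description with no test.

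LIN28A and LIN28B are RNA-binding proteins of embryonic and fetal cells that hold back the let-7 family of microRNAs. They bind the loop of a let-7 precursor. With LIN28A, the uridylyl transferase TUT4 is recruited there to add a uridine tail, after which the exonuclease DIS3L2 degrades the tailed precursor. Whether LIN28B works through TUT4 was not tested here. Mature let-7 represses growth and fetal genes through its seed, and Hmga2, the Igf2bp genes and Arid3a are among its best known targets. In blood, Lin28b is known as a gene of fetal stem and progenitor cells that is switched off in adult marrow.

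The mature sequences show what the family shares, and are given as RNA from RefSeq (build GRCm38.p6), 5′ to 3′, with the seed, bases 2 to 8, in capitals. All 9 mature let-7 and miR-98 sequences from the 5′ arm had the same seed, and 4 of them are printed to show where they differ.
mmu-let-7a-5p: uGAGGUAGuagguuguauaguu
mmu-let-7d-5p: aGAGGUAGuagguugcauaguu
mmu-let-7i-5p: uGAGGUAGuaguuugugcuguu
mmu-miR-98-5p: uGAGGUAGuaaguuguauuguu
The zinc knuckles of LIN28 recognise GGAG in the precursor loop, so the hairpins were searched for these letters, on the RNA strand, between the 5′ and the 3′ mature sequence. Of the 11 let-7 and miR-98 hairpins with both arms listed, 8 held GGAG in the loop, against 8.07% of all 644 mouse hairpins with both arms listed. A pair with the motif, in capitals, and a pair without it are printed.
Mirlet7a-1: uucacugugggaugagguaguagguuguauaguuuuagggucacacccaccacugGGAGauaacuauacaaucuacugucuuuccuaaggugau
Mirlet7i: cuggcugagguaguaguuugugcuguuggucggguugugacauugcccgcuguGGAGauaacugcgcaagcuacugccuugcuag
Mirlet7b: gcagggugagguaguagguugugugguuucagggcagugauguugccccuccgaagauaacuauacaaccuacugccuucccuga
Mirlet7c-2: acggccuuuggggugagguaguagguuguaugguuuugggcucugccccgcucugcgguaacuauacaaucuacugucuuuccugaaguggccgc
The remaining hairpin without GGAG in its loop was Mir98. The arrays did not measure mature microRNAs, so these sequences carry no level here.

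The cells were mouse c-Kit-positive bone marrow cells with floxed Runx1 and Cbfb alleles, and all groups carried MLL-AF9, a leukaemia fusion protein, and CreERT2 with puromycin resistance, CreERT2 being a recombinase held inactive until 4-hydroxytamoxifen (4OHT) binds it. Cultures labelled Runx1Cbfb-KO received 4OHT at 1 µM for 24 h, and cultures labelled Control received ethanol for 24 h, all in M3434 methylcellulose with cytokines. Each of the 2 clones, Clone1 and Clone2, had 2 biological replicates per treatment, which made 8 arrays and 4 sets of a culture labelled KO and its Control. Neither the age of the mice nor the promoter of a transgene is named in the sources used here. No culture received 4OHT without floxed alleles, so its effect and that of the deletion cannot be told apart. Values are log2 RMA levels (robust multi-array average), and array medians over all probe sets lay between 6.26 and 6.39. Runx1 signal was higher in the arrays labelled KO by 0.52 ± 0.036 on the log2 scale (limma's moderated SE over 4 sets, here and below, with limma's adjusted p = 1.64e-05). Cbfb was at -0.18 ± 0.046 (adjusted p = 0.128). Whether the probes lie in the deleted exons is not known here, so the arrays are called labelled KO throughout. Of 11 myeloid progenitor markers, 10 lay above the median of every array, Mpo (12.93 to 13.18) and Elane (13.27 to 13.36) among the brightest. The exception, Cd34, was above it in Clone2 alone, while pluripotent cell markers lay between 3.91 and 5.90, below every array median. A bulk level cannot tell fewer expressing cells from less RNA per cell.

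Lin28b was low in Clone1 and high in Clone2, whatever the treatment. In Clone1 its log2 level was 5.38 and 5.35 in the arrays labelled KO (replicate 1 first, here and below), against 5.39 and 5.34 in Control arrays. In Clone2 it was 9.46 and 9.09 in the arrays labelled KO, against 9.48 and 9.43 in Control arrays. The Clone1 values lay below the array median and the Clone2 values well above it, with no overlap. Among arrays labelled KO, Clone1 averaged 5.37 ± 0.017 and Clone2 9.28 ± 0.26 (SD, n = 2 each), a difference of -3.91, or a measured 15.0-fold lower in Clone1. Among Control arrays, Clone1 averaged 5.37 ± 0.038 and Clone2 9.45 ± 0.038 (SD, n = 2 each), a difference of -4.09, or a measured 17.0-fold lower in Clone1. Ranked over all genes by how much lower Clone1 was as measured, Lin28b was number 5 in either treatment. The Clone1 signal lay within the range of the pluripotent markers and was not shown to be above background, so these folds and the rank hold for the measured signals only. Of the 19938 genes, 0.401% differed by 2 log2 units or more between clones among Control arrays and 0.381% did so in both treatments, and the choice of the axis used this contrast.

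Its close relative Lin28a, the form typical of pluripotent cells, showed no such split. Lin28a stood at 8.30 and 8.21 in Clone1 arrays labelled KO, against 8.14 and 8.24 in Clone1 Control arrays. In Clone2 it stood at 8.32 and 8.09 in the arrays labelled KO, against 8.31 and 8.08 in Control arrays. The 4 arrays of each clone overlapped, and the means of the clones differed by 0.05 among arrays labelled KO and by 0.00 among Control arrays.

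Tut4, the transferase that tails let-7 precursors held by LIN28A, had the same split as Lin28b. Its level in Clone1 was 6.16 and 5.63 in the arrays labelled KO, against 5.73 and 5.26 in Control arrays. Its level in Clone2 was 10.02 and 10.09 in the arrays labelled KO, against 9.78 and 10.08 in Control arrays. All Clone1 values lay below the array medians and all Clone2 values above. Clone1 was 17.9-fold lower among arrays labelled KO (difference -4.16) and 21.7-fold lower among Control arrays (difference -4.44), which made Tut4 number 4 of all genes in either treatment. The Clone1 signal of Tut4 was likewise not shown to be above background, and its folds and rank are those of the measured signals. Over the 8 arrays Tut4 and Lin28b had a Pearson r of 0.991, which describes the gap between the clones, since the arrays share only 2 clones.

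Dis3l2, the exonuclease that degrades tailed let-7 precursors, went the other way and by little. It stood at 8.95 and 8.79 in Clone1 arrays labelled KO, against 8.82 and 8.87 in Clone1 Control arrays. In Clone2 it stood at 8.68 and 8.47 in the arrays labelled KO, against 8.68 and 8.57 in Control arrays. Clone1 was higher by 0.29 among arrays labelled KO and by 0.22 among Control arrays, and its 4 arrays lay above the 4 of Clone2.

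**Figure D1:**
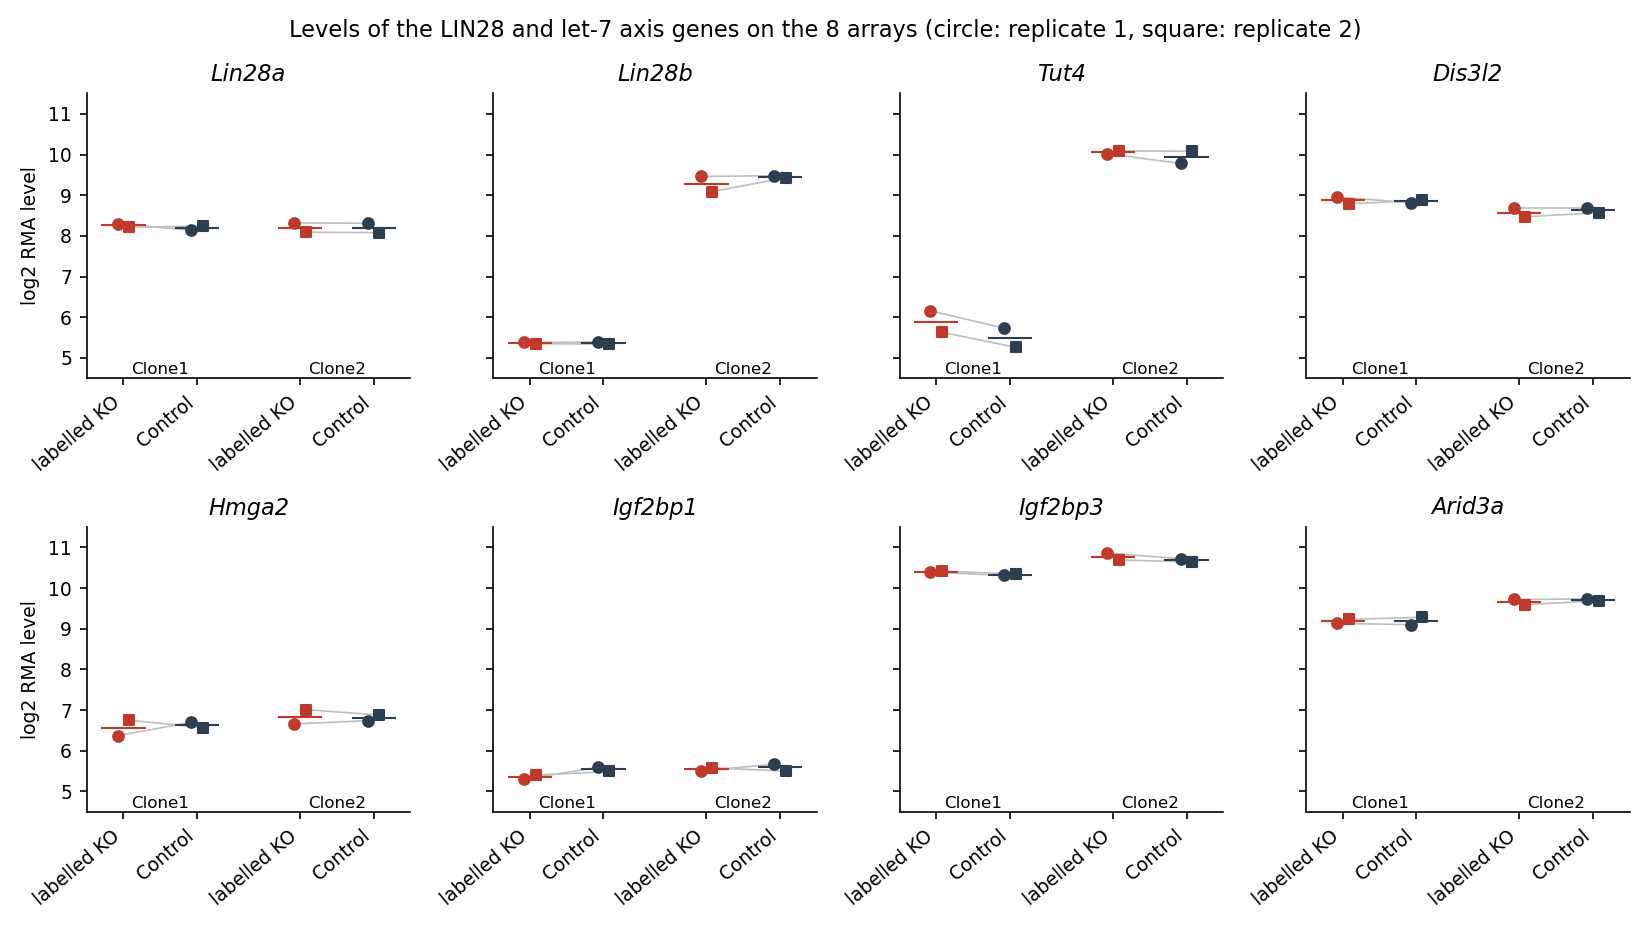
Log2 RMA level (vertical axis) of the 8 measured genes on the 8 arrays, by clone and treatment; points are arrays, short bars are means of 2 arrays and grey lines join the arrays of a set. Lin28b and Tut4 sit near 5.3 to 6.2 in Clone1 and 9.1 to 10.1 in Clone2, while the other 6 genes differ by at most 0.52 between the clones' means.

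Among the let-7 targets of the axis, Arid3a and Igf2bp3 were modestly lower in Clone1. Arid3a, a DNA-binding protein of B cells and fetal progenitors, had 9.13 and 9.23 in Clone1 arrays labelled KO, against 9.10 and 9.28 in Clone1 Control arrays. In Clone2 it had 9.72 and 9.59 in the arrays labelled KO, against 9.73 and 9.69 in Control arrays. The clones did not overlap, and Clone1 was lower, with differences of -0.47 among arrays labelled KO and -0.52 among Control arrays. Igf2bp3, an oncofetal RNA-binding protein that stabilises messages, had 10.39 and 10.41 in Clone1 arrays labelled KO, against 10.31 and 10.35 in Clone1 Control arrays. In Clone2 it had 10.86 and 10.69 in the arrays labelled KO, against 10.72 and 10.64 in Control arrays. Again the clones did not overlap, with differences of -0.37 among arrays labelled KO and -0.35 among Control arrays.

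Hmga2 and Igf2bp1 did not separate the clones. Hmga2, a chromatin architecture factor of fetal stem cells and the classic let-7 target, ran from 6.37 to 6.75 in Clone1 and from 6.66 to 7.01 in Clone2. Its clone differences were -0.28 among arrays labelled KO and -0.18 among Control arrays, and the ranges overlapped. Igf2bp1, a fetal mRNA-binding protein, lay below the array median on all 8 arrays, between 5.30 and 5.67. Its dimmer probe set lay between 3.69 and 3.89. In all, the 4 arrays of Clone1 lay below the 4 of Clone2 for 4 of the 8 genes (Lin28b, Tut4, Igf2bp3 and Arid3a), against 9.22% of all genes, and above them for 1 (Dis3l2), against 10.5%. Since clone levels were known when the genes were chosen, nothing is read from these counts.

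The next question was what 24 h of 4OHT did to the axis. Over the 4 sets none of the 8 genes passed limma's paired test at an adjusted p of 0.05, where 190 of 19938 genes did (0.953%; 0.481% higher and 0.471% lower). Tut4 was the 1 member with an unadjusted p under 0.05, as were 1289 of the 19938 genes, so 1 of 8 is not read as a result. Lin28b was at -0.09 ± 0.082 on the log2 scale (SE over 4 sets; limma's adjusted p = 1), with an unadjusted 95% interval of -0.26 to 0.09. Its set differences were -0.01 and 0.01 in Clone1 and -0.02 and -0.33 in Clone2, so the difference lay in the second set of Clone2. Within Clone2 alone the effect was -0.18 ± 0.13 (SE; limma adjusted p = 1.00), and in Clone1, where the signal was low throughout, it was 0.00 ± 0.13. The difference between these effects was 0.18 ± 0.18 (adjusted p = 1.00), where 2 genes in all passed (0.01%) and 393 had an unadjusted p under 0.05.

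Tut4 was higher in 4 of 4 sets, by 0.43 and 0.38 in Clone1 and by 0.24 and 0.00 in Clone2, the last too small to show at this rounding. The Clone1 signal of Tut4 lay below the array medians and was not shown to be above background. Its larger differences, those of Clone1, are thus differences of a dim signal. The fitted difference was 0.26 ± 0.080 (SE over 4 sets; limma's adjusted p = 0.253), or 1.20-fold, and it did not pass over all genes. It passed without the second set of Clone2 (0.35, adjusted p = 0.0209) and with array weights (0.31, adjusted p = 0.0223). The effect was 0.40 ± 0.11 in Clone1 and 0.12 ± 0.11 in Clone2, and their difference of 0.28 ± 0.16 did not pass (adjusted p = 1.00). In neither clone did the effect pass (adjusted p = 0.378 in Clone1, with 0.181% of genes called there, and 1.00 in Clone2, with 0.682%).

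The other members stayed within 0.12 of 0. Igf2bp3 was higher in 4 of 4 sets, by 0.07, 0.06, 0.13 and 0.05, and its fitted difference of 0.08 ± 0.036 did not pass (SE; limma adjusted p = 0.793). Igf2bp1 was lower in 3 of 4 sets (fitted difference -0.12 ± 0.082), and its signal was below the array median throughout. Hmga2 moved in opposite directions between sets, by -0.33, 0.18, -0.08 and 0.13, with a fitted difference of -0.03 ± 0.095. Its unadjusted 95% interval was -0.23 to 0.18. Lin28a, Dis3l2 and Arid3a were at 0.04 ± 0.064, -0.01 ± 0.060 and -0.03 ± 0.048. The limma adjusted p was 1 for these last 5 genes, which does not show that they were the same in both treatments.

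**Figure D2:**
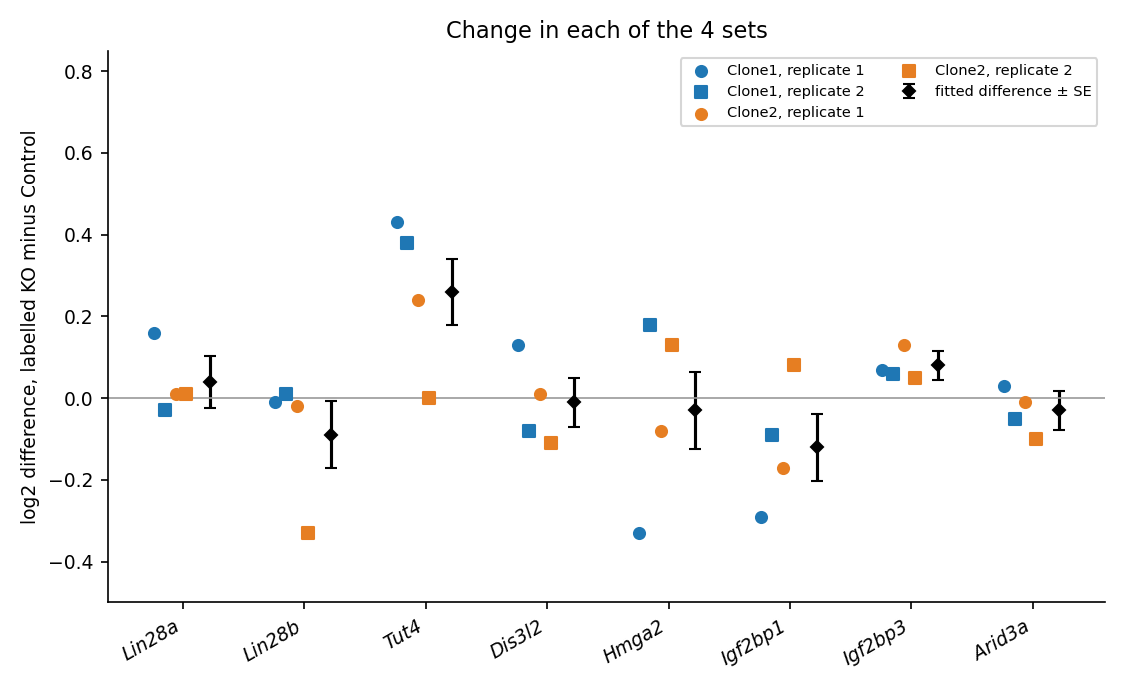
Log2 difference of the array labelled KO minus its Control array (vertical axis) in each of the 4 sets for the 8 measured genes, with the fitted difference and its SE as a black diamond. Tut4 lies between 0.00 and 0.43, and the set of Clone2, replicate 2, sets Lin28b apart at -0.33.

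Because Lin28b and Tut4 showed the widest gaps of the axis, their surroundings on the chromosome were looked at after these values were seen. The order of genes was taken from RefSeq (GRCm38.p6), and the 6 measured genes on each side were compared between the clones. Around Tut4, all 12 neighbours differed by less than 0.5 in either treatment, from -0.48 to 0.14 among Control arrays and from -0.42 to 0.28 among arrays labelled KO. Around Lin28b, 10 of 12 differed by less than 0.5, including the adjacent Bves and Hace1. The exceptions were Lilr4b and Lilrb4a, leukocyte immunoglobulin-like receptor genes at the far end, which were higher in Clone1 (1.21 for Lilrb4a among Control arrays). No measured neighbour was lower in Clone1 by 0.5 or more.

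**Figure D3:**
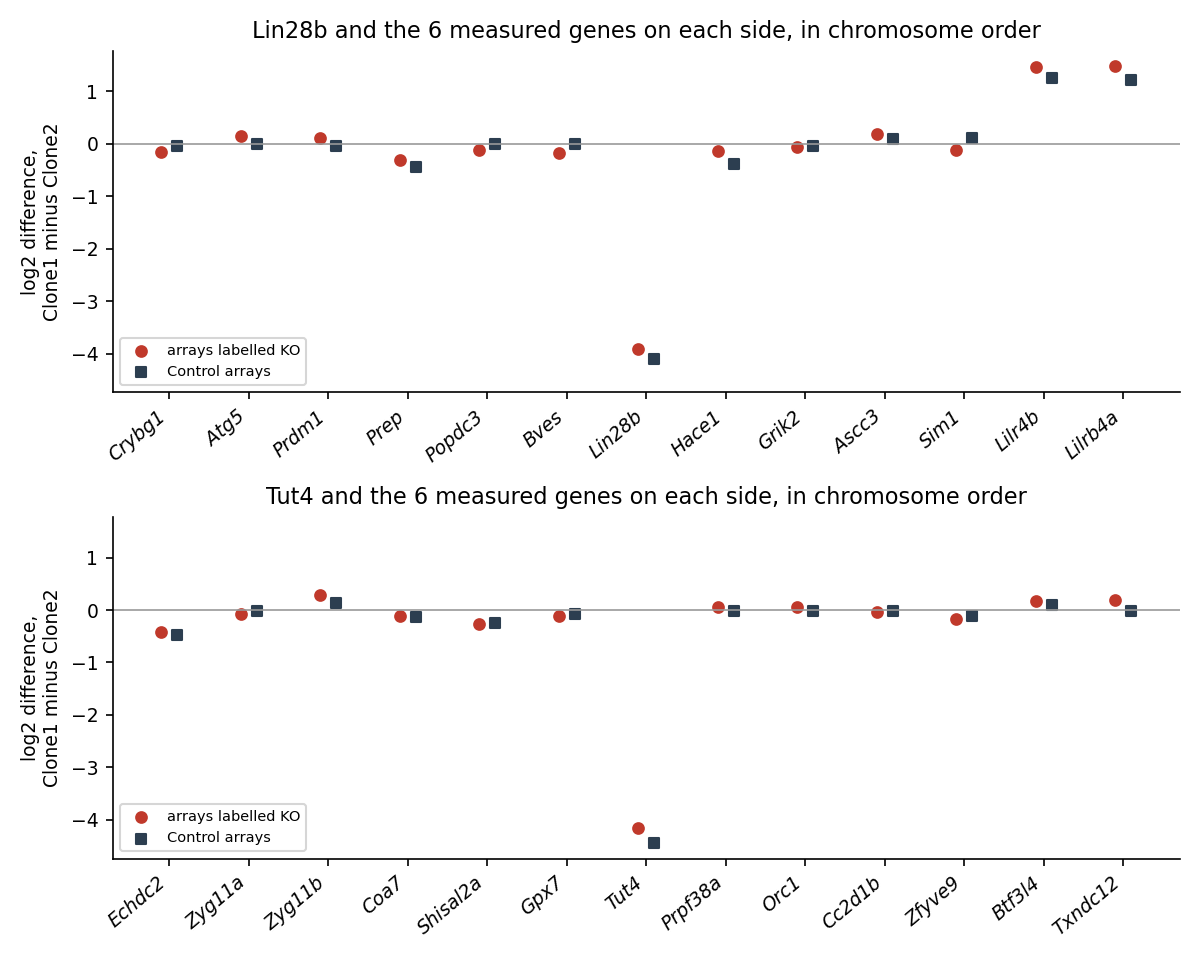
Log2 difference of Clone1 minus Clone2 (vertical axis) for Lin28b, Tut4 and the 6 measured genes on each side, in chromosome order, among arrays labelled KO and among Control arrays. Lin28b and Tut4 stand near -4, their neighbours lie near 0 apart from Lilr4b and Lilrb4a.

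The promoter windows of these genes are shown because the study targets RUNX1 and its partner and because Lin28b and Tut4 differ so widely between clones. RefSeq windows of 250 bases before and 50 after the start were listed for 7 of the 9 genes, in 8 windows, and searched on both strands for the RUNX letters TGTGGT and for the E-box CACGTG, which MYC and other factors recognise. None of the 8 windows held TGTGGT, against 16.8% of all 32817 windows. CACGTG was in the windows of Lin28b and Igf2bp3, against 7.15% of all windows, and is in capitals below. Tut4 had 2 windows, neither with CACGTG, and the first of them is printed.
Lin28b, chr10:45470152-45470451, minus strand: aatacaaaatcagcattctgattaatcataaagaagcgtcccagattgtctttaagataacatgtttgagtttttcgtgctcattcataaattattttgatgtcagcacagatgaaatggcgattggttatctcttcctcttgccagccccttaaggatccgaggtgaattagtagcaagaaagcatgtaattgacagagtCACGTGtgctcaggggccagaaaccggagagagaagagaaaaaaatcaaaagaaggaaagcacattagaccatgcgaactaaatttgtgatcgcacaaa
Igf2bp3, chr6:49214905-49215204, minus strand: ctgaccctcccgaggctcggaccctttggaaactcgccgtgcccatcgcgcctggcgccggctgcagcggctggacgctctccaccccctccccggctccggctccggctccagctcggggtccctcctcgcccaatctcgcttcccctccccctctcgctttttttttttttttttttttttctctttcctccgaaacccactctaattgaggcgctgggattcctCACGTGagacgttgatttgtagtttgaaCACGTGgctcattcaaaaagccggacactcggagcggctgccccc
Tut4, chr4:108459160-108459459, plus strand: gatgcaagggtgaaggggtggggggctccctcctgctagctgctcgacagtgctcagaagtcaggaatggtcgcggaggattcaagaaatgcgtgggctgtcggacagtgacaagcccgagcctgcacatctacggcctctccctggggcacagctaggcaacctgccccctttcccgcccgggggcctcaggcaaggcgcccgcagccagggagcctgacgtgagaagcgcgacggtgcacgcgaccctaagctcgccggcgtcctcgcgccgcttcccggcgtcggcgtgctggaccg
A match is only a match of letters, and its absence says nothing about a factor elsewhere. Myc, whose protein binds CACGTG, was at 11.72 and 11.70 in Clone1 arrays labelled KO, against 11.67 and 11.68 in Clone1 Control arrays. In Clone2 Myc was at 11.91 and 11.84 in the arrays labelled KO, against 11.84 and 11.79 in Control arrays. Clone1 was thus at -0.17 and -0.14 relative to Clone2 for Myc, and neither difference passed (limma adjusted p = 0.119 and 0.276).

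Other genes shared the clone pattern. The 6 genes most like Lin28b over the 8 arrays, among 85 with a spread at least 0.5 times as wide, were Nmral1, Taf9b, Xist, Bhlhb9, Mef2c and Il1rl2. Their Pearson r was 0.995 to 0.999. They were picked for a high r over arrays of only 2 clones, so these r restate the clone gap. Nmral1, a redox-sensing protein, averaged 5.87 in Clone1 and 9.12 in Clone2 among arrays labelled KO, and 5.88 and 9.15 among Control arrays. Mef2c, a transcription factor of myeloid and lymphoid progenitors, averaged 8.23 in Clone1 and 10.67 in Clone2 among arrays labelled KO, and 8.15 and 10.61 among Control arrays. Xist, the RNA of the inactive X chromosome in female cells, averaged 4.99 in Clone1 and 11.26 in Clone2 among arrays labelled KO, and 5.11 and 11.21 among Control arrays. The Y-linked gene Uty went the other way, higher in Clone1 by 4.61 among arrays labelled KO and by 4.94 among Control arrays. The clones thus differ in sex-linked expression as well, and clone and sex of the cells cannot be told apart with 1 clone of each kind.

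The let-7 genes themselves gave little signal. Of 12 let-7 and miR-98 genes, 10 had a probe set of their own, and Mirlet7b and Mirlet7c-2 were on probe sets that also carry the symbol Lncppara. Levels ran from 3.59 to 7.24, and only Mirlet7i was above the array median on all 8 arrays. None of the 10 passed limma's paired test (1 with an unadjusted p under 0.05, against 1289 of the 19938 genes), and the median change was -0.01, against 0.00 over all genes. Mirlet7g had the smallest p, at -0.17 ± 0.064 (SE, n = 4 sets; limma adjusted p = 0.506). None passed between clones either (limma, with 0 at an unadjusted p under 0.05 among Control arrays and 1 among arrays labelled KO). Mirlet7i was at 6.49 and 6.67 in Clone1 and 6.71 and 7.24 in Clone2 in the arrays labelled KO, and at 6.59 and 6.63 in Clone1 and 7.09 and 6.76 in Clone2 in Control arrays. Whole-transcript labelling reports precursor or host RNA at best, so the amount of mature let-7 in either clone is not known from these arrays.

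In the machinery that makes and trims microRNAs, none of 27 measured genes of processing passed between treatments in limma (0 also at an unadjusted p under 0.05), with a median of 0.01 and Msi2, an RNA-binding protein of stem cells, having the smallest p (0.08 ± 0.044; adjusted p = 0.979). Drosha and Dicer1, the nucleases that cut microRNA precursors, were at -0.01 ± 0.059 and 0.02 ± 0.049. Between clones 1 passed among arrays labelled KO, where it was higher in Clone1 (3.43% of all genes were), and none among Control arrays (5 at an unadjusted p under 0.05; 3.97% of all genes passed there). A count of 1 of 27 is near the share over all genes and is not read as a result. The gene that passed, named after its values were seen, was Tut7, the paralog of Tut4 that can also tail let-7 precursors. Tut7 had 9.23 and 9.22 in Clone1 and 8.86 and 8.74 in Clone2 in the arrays labelled KO, and 9.23 and 9.29 in Clone1 and 8.86 and 8.95 in Clone2 in Control arrays. Clone1 was higher by 0.42 among arrays labelled KO (limma adjusted p = 0.0287) and by 0.36 among Control arrays (adjusted p = 0.0782), opposite in sign to Tut4 and far smaller.

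Beyond the axis, 59 of 64 listed let-7 targets were measured. After 4OHT 1 of the 59 fell (0.471% of all genes did) and none rose, with a median of -0.01. It was Thbs1, the secreted matrix protein thrombospondin 1, at 7.82 and 7.33 in Clone1 and 6.56 and 6.71 in Clone2 in the arrays labelled KO, and at 11.17 and 10.41 in Clone1 and 8.73 and 7.66 in Clone2 in Control arrays. Its fitted difference was -2.39 ± 0.27 (SE, n = 4 sets; limma adjusted p = 0.00102), and the call ended with robust moderation (0.402). Between clones, 6 of the 59 targets were lower in Clone1 among arrays labelled KO, against 1.82% of all genes. Among Control arrays 6 (10.2%) were lower, against 1.6% of all genes, 5 of them in both treatments, and 1 (1.69%), Thbs1, was higher, against 2.37%. The test sets 2 cultures of 1 clone against 2 of another, so it speaks of these clones alone. The list was chosen with earlier results of these data known, so nothing about let-7 is read from these counts. The count of 6 among Control arrays dropped to 2 without the first set of Clone1 or the second of Clone2, to 3 without the second set of Clone1 and to 3 with arrays centred on their medians.

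Ccnd2, cyclin D2 of the G1 phase, was the target with the widest gap. It had 8.31 and 8.10 in Clone1 and 10.98 and 10.50 in Clone2 in the arrays labelled KO, and 8.27 and 7.97 in Clone1 and 11.25 and 10.89 in Clone2 in Control arrays. Clone1 was lower, with differences of -2.54 among arrays labelled KO (limma adjusted p = 1.12e-05) and -2.95 among Control arrays (adjusted p = 3.44e-06). Dusp9, a phosphatase that switches off MAP kinases, differed by -1.04 among arrays labelled KO and -0.82 among Control arrays (adjusted p = 0.00109 and 0.00536). Arid3b, the relative of Arid3a and itself a let-7 target, differed by -0.51 and -0.54 (adjusted p = 0.0377 and 0.0338). The median clone difference of the 59 targets was -0.07 among Control arrays, against -0.03 over all genes.

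**Figure D4:**
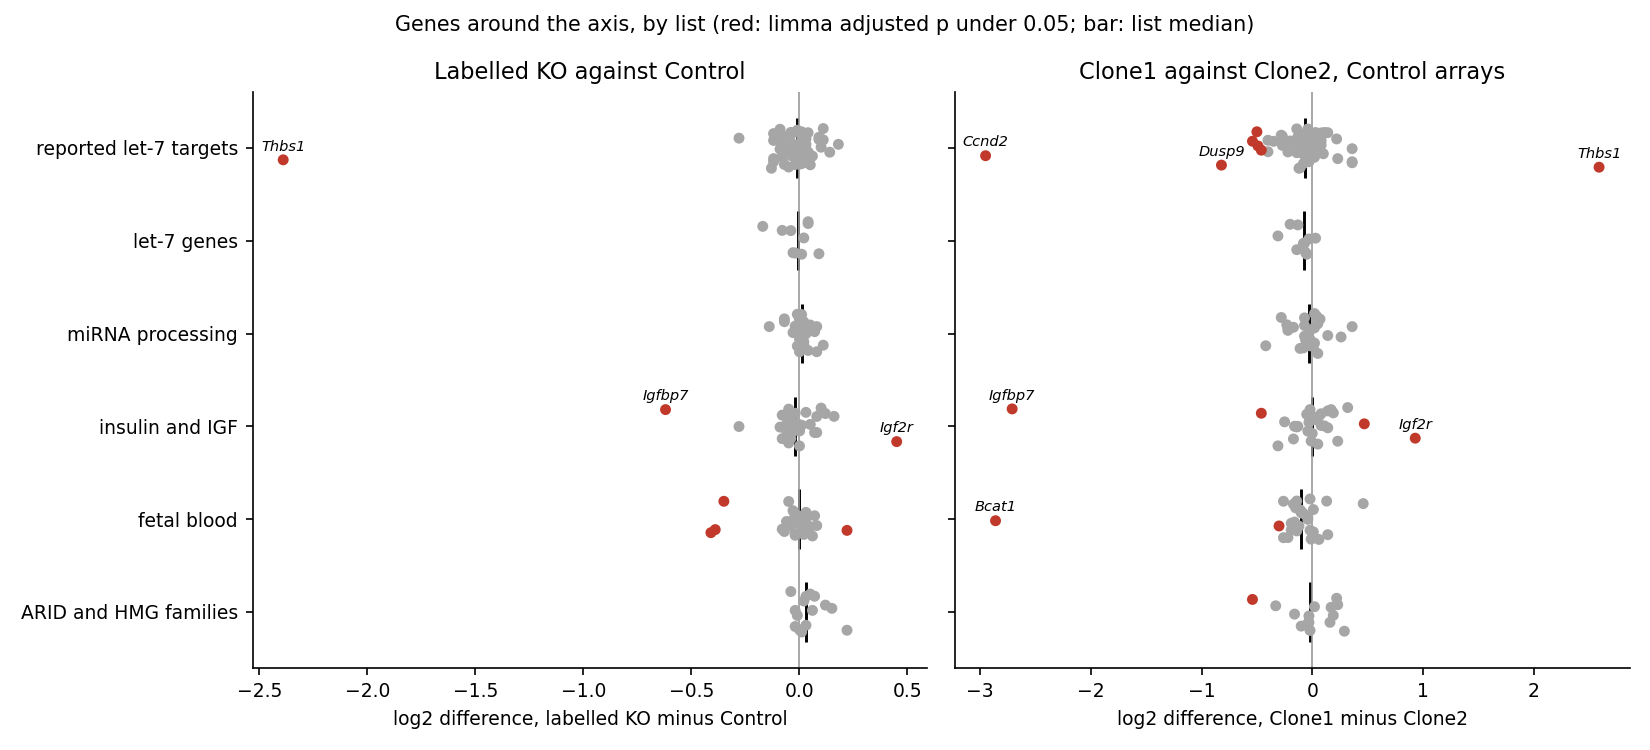
Log2 differences (horizontal axes) of the genes of 6 lists, labelled KO minus Control on the left and Clone1 minus Clone2 among Control arrays on the right; each point is a gene, red points passed limma at an adjusted p under 0.05 and black bars are list medians. Medians lie between -0.11 and 0.03, with Thbs1 far to the left on the left panel and Ccnd2, Bcat1 and Igfbp7 far to the left on the right panel.

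IGF signalling is bound to this axis through the Igf2bp genes and the insulin receptor family, which let-7 represses. Of 29 measured insulin and IGF genes 1 rose and 1 fell after 4OHT, with a median of -0.02, where 0.481% of all genes rose and 0.471% fell. Igf2r, the scavenging receptor for IGF2, rose (0.45 ± 0.059, SE, n = 4 sets; limma adjusted p = 0.00219). Igf2r had 10.74 and 10.90 in Clone1 and 10.13 and 10.24 in Clone2 in the arrays labelled KO, and 10.41 and 10.63 in Clone1 and 9.45 and 9.73 in Clone2 in Control arrays. Igfbp7, a secreted binding protein, fell by 0.62 ± 0.11 (adjusted p = 0.0202), a call that ended without the first set of Clone2 (0.0733). Its gap between clones was wider, with Clone1 at -2.03 among arrays labelled KO and -2.71 among Control arrays (adjusted p = 4.00e-06 and 4.02e-07). Igf1r, the IGF1 receptor and a let-7 target, was at -0.28 ± 0.066 after 4OHT and did not pass (adjusted p = 0.0762). Within Clone2 alone it fell by 0.43 ± 0.077 (limma adjusted p = 0.0132), with -0.14 ± 0.077 in Clone1 (adjusted p = 1.00), and the difference between these effects did not pass (0.29 ± 0.11; adjusted p = 1.00). Igf1r was lower in Clone1 among Control arrays (-0.46; adjusted p = 0.0270), and the difference of -0.17 among arrays labelled KO did not pass (0.389). Igfbp4 was higher in Clone1 among Control arrays (0.47; adjusted p = 0.0495) and at 0.39 among arrays labelled KO (0.0886).

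A list of genes linked to fetal blood was read alongside, since Lin28b is the best known switch of that program. Of 28 measured genes 1 rose and 3 fell after 4OHT, with a median of 0.00, against 0.481% and 0.471% of all genes. Cd93, a surface receptor of progenitors, rose by 0.22 ± 0.039 (SE, n = 4 sets; limma adjusted p = 0.0161). Cbfa2t3, a corepressor, fell by 0.35 ± 0.055 (adjusted p = 0.00783), Prom1, which encodes CD133, fell by 0.39 ± 0.076 (0.0272) and Zbtb16, the PLZF factor, fell by 0.41 ± 0.087 (0.0476). Each of these 4 calls ended without 1 set: Cd93 without the first set of either clone (0.0663 and 0.0658), Cbfa2t3 without the second of Clone1 (0.0923), Prom1 without that set or the first of Clone2 (0.120 and 0.136), and Zbtb16 without any set other than the second of Clone2 (0.139 to 0.516). Cbfa2t3 has 2 probe sets, and with their mean its change was -0.23 and did not pass (limma adjusted p = 0.222). Cd93 did not pass with arrays centred on their medians (limma adjusted p = 0.224), nor Zbtb16 with robust moderation (0.0526). Between clones, 2 of the 28 (7.14%) were lower in Clone1 among Control arrays and none was higher, against 1.6% and 2.37% of all genes. This list too was chosen with earlier results of these data known, and nothing is read from its clone counts. Bcat1, a branched-chain amino acid transaminase, had 6.59 and 6.59 in Clone1 and 9.29 and 9.56 in Clone2 in the arrays labelled KO, and 6.67 and 6.64 in Clone1 and 9.27 and 9.75 in Clone2 in Control arrays. Etv6, a repressor needed by marrow stem cells, was lower in Clone1, at -0.35 among arrays labelled KO and -0.30 among Control arrays (adjusted p = 0.0138 and 0.0358). Of 15 measured ARID and HMG family genes none passed after 4OHT in limma (3 at an unadjusted p under 0.05, against 1289 of all 19938 genes), with Arid5a at 0.22 ± 0.064. Between clones Arid3b was lower in Clone1 in both treatments and Hmgn1, a nucleosome-binding protein, among arrays labelled KO.

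Markers of other cells were read for the clone gap. Of 4 measured B cell markers, Cd79b followed the clones, with 6.34 and 6.38 in Clone1 and 9.39 and 9.69 in Clone2 in the arrays labelled KO, and 6.33 and 6.60 in Clone1 and 9.27 and 9.65 in Clone2 in Control arrays. The other B cell markers Cd79a, Pax5 and Ms4a1 lay below every array median, at 4.13 to 6.09. The mean level of the list was 5.13 to 5.28 in Clone1 and 5.94 to 6.23 in Clone2, a gap carried by Cd79b, and its part in the Lin28b and Tut4 gap was not tested. Cd79b differed by -3.18 among arrays labelled KO and -2.99 among Control arrays (limma adjusted p = 7.95e-07 and 1.35e-06). For T cell markers, none of 4 genes passed between clones in limma (0 at an unadjusted p under 0.05), and their mean level was 5.33 to 5.49 in Clone1 and 5.39 to 5.57 in Clone2. The mean level of 5 erythroid markers was 6.94 to 7.05 in Clone1 and 6.90 to 6.98 in Clone2, and that of 6 mast cell and basophil markers 5.78 to 5.92 in Clone1 and 5.73 to 5.96 in Clone2. It was 5.40 to 5.51 in Clone1 and 5.58 to 5.78 in Clone2 for 4 megakaryocyte markers. For 5 stromal markers it was 6.83 to 7.13 in Clone1 and 7.34 to 7.58 in Clone2. Of the megakaryocyte and the stromal list, 1 gene each was lower in Clone1 in both treatments in limma. Over all genes, 1.6% were lower among Control arrays and 1.82% among arrays labelled KO. The lists are short, and nothing is read from 1 gene of each. After 4OHT 3 of 11 myeloid progenitor markers (Prtn3, Ms4a3 and Kit) and 1 of 5 stromal markers (Vcam1) fell, where 0.471% of all genes did, and none of the other markers passed. Between clones, Cd34, a progenitor surface marker, was far lower in Clone1, at -5.66 among arrays labelled KO and -5.48 among Control arrays (limma adjusted p = 2.31e-08 and 3.19e-08). Ptprc and Csf2rb were higher in Clone1 in both treatments and Ms4a3 among arrays labelled KO. The part of these markers in the Lin28b and Tut4 gap was not tested.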

How the data were processed

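Expression was measured on 8 Affymetrix whole-transcript arrays. The deposited values are log2 levels per probe set. RMA was used by the authors, per the submitters' processing notes, with no version or chip definition named in the sources used here. The log base was read from the values, 2.6 to 13.77. The arrays' number limits the precision.

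Of 35556 probe sets, 21789 had 1 gene symbol in the platform annotation, 1621 had several and were not used for names, and 12146 were not listed. The brightest probe set was kept for each of 19938 genes. Fits used limma 3.58.1 in R 4.3.3 with a variance trend, two-sided, with Benjamini-Hochberg adjustment over all genes at 0.05, and the set (clone and replicate number) as a block. Each SE of a fitted difference is limma's moderated SE, which also draws on the spread of all genes. Within every set the arrays, centred on the mean of their treatment over both clones, deviated together (r of 0.724 to 0.817). The clone gap stays in this r, so it cannot tell whether cultures of the same replicate number belong together. That pairing was inferred from titles and the series' design. Clones were fitted as 4 cells without the block. The members, lists and tests were chosen with earlier results of these data known. Named list genes are those past the threshold after 4OHT, up to 4 per list with the largest clone gap among Control arrays, or else the gene with the smallest p. The design text describes independent experiments on each of 2 clones, so p-values cover the spread between those cultures alone. Alternatives covered pairing, variance model, array weights, normalization, dim genes, probe sets and left-out sets.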

Additional observations from a re-analysis of the deposited data

Results flagged for a closer look

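The 4 set differences of Lin28b, labelled KO minus Control, hold 1 set far from the others. The set of Clone2, replicate 2, was at -0.33 and the other 3 between -0.02 and 0.01, so the gap was 0.9 of the range, above the 95% critical value of Dixon's test for 4 values. All 8 measured genes were tested in this way, and chance flags about 1 in 20 such groups where the 4 values share 1 spread. For Lin28b that rate may not hold, since its Clone1 signal lay below the array median and was not shown to be above background. In the set of Clone2, replicate 2, Tut4 also had its smallest difference, 0.00.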

How the results depend on the processing

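Among Control arrays, the clone gap of Lin28b ran from -4.11 to -4.05 and that of Tut4 from -4.68 to -4.20 over 8 alternatives each; -4.05 came with arrays centred on their medians, and left-out sets gave -4.11 to -4.06 for Lin28b. None of 213 values of the members within clones or of the difference between clones passed, and 2 of 111 values over all sets did, both for Tut4: 0.31 with array weights and 0.35 without Clone2 replicate 2. Tut4 ran from 0.21 to 0.35 over the left-out sets and did not pass without any other set. Lin28b stayed between -0.12 and -0.01. Dropping the replicate block cannot move a fitted difference in this balanced design (0.26 for Tut4, -0.09 for Lin28b), and the adjusted p of Tut4 was then 1.00. The count of all genes after 4OHT, 190, was 0 without the replicate block (317 unadjusted), 23 with clone as the only covariate, 13 without the variance trend, 388 with array weights, 0 with all probe sets tested (1834 unadjusted) and 98 to 418 without a set, where it was 98 without Clone1 replicate 2, 110 without Clone2 replicate 1 and 418 without Clone2 replicate 2. With centring its split was 52 higher and 76 lower, against 96 and 94. The 2 genes whose effects differed between clones became 0 without the block (178 unadjusted), 0 without the trend (304), 4 with array weights, 1 with quantile normalization, 12 with centring and 0 with all probe sets (776). In additions made after the data were seen, genes lower or higher between clones numbered 385 to 588 without a set, against 792. let-7 targets lower in Clone1 numbered 2 to 4 without a set and 3 with centring, against 6. Without a set, the largest adjusted p was 0.0663 for Cd93, 0.0923 for Cbfa2t3, 0.136 for Prom1 and 0.516 for Zbtb16. Those 4 genes, Igf2r, Igfbp7 and Thbs1 did not pass without the replicate block, without the trend or with all probe sets, and with clone as the only covariate Thbs1 alone of them passed (adjusted p = 0.0240). For all values here the cause was not tested. Depth does not apply to arrays: Igf2bp1, Lin28b and Tut4 in Clone1 and most let-7 genes lie below the array medians.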
